A study of Mus musculus with 6 samples.

Results

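The core of the mammalian circadian clock was read here through 10 genes, Arntl, Clock, Npas2, Per1, Per2, Per3, Cry1, Cry2, Nr1d1 and Nr1d2, in ND- and HFD-fed mouse hearts. Every array probe that carried exactly one of these gene names was taken, which gave 13 of 55681 probes, for 10 of 36163 gene names. The clock is a feedback loop of transcription that runs in nearly every cell, heart muscle cells included. The proteins of Arntl and Clock (or Npas2, which can stand in for Clock) bind E-box sequences and switch on the Per, Cry and Nr1d genes. PER and CRY proteins return to block that activation, and the nuclear receptors encoded by Nr1d1 and Nr1d2 (REV-ERBα and REV-ERBβ) repress Arntl. In the heart, this loop is known to time the use of fatty acids and glucose over the day.

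Hearts came from male C57BL/6 mice that received either a diet with 60% of its kcal from fat (HFD) or standard chow (ND) for 4 months, beginning when they were 4 weeks old. There were 3 ND and 3 HFD hearts, and the total RNA of each heart was labelled with Cy3 and read on 1 Agilent array. The mice had free access to food under a light and dark cycle, and the hour at which the hearts were taken is not given in the sources used here. Each heart is therefore a single reading of a rhythm, and neither phase nor amplitude was measured. The 6 arrays lay on 1 slide, HFD 1 and HFD 2 in its first row and HFD 3 with the 3 ND hearts in its second row. The share of probes well above background ran from 49.2% to 53.0% per array, the 75th percentile of the intensity ranged from 453 to 544, and no spot was saturated. Markers of working heart muscle (Myh6, Myl2, Myl3, Actc1, Tnnt2, Tnni3, Ryr2 and Pln) were well above background on all arrays, 8 of 8. All levels below are log2 intensities relative to the 75th percentile of the array, so that 0 is the brightness of that percentile and 1 unit is a 2-fold step. Levels of different probes cannot be set against each other, because each probe has its own brightness for a given amount of RNA.

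Of the 13 clock probes, 11 were well above background on every heart of at least 1 diet and were tested, and these covered 9 of the 10 genes. On the HFD, 8 of the 11 had a lower mean and 3 a higher mean than on the ND, where 48% of all 27582 tested probes were higher. Both clock probes at an unadjusted limma p below 0.05 were lower in HFD hearts, 1 for Cry2 and 1 for Nr1d1. These 2 of 11 (18.2%) stand beside 11.9% of all tested probes at that limit in either direction and 6.64% in the lower direction. After Benjamini-Hochberg adjustment over all tested probes, 0 clock probes passed 0.05 in limma or in any of the alternatives run, the methods' t-test among them, while 4 of the 27582 (0.0145%) passed in limma. The smallest adjusted p of a clock probe in limma was 0.286. For 3 of the 11 probes (27.3%) the diets separated without overlap, all 3 lower in HFD hearts, against 19% of all tested probes, 7.91% higher and 11.1% lower. The median log2 fold change (HFD minus ND) of the clock probes was −0.14, and that of all tested probes was −0.0081. These are whole pieces of heart, in which less RNA per cell cannot be told apart from fewer cells of the type that carries it.

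The sequences behind the lower signals are shown first. Nr1d1 (NM_145434) was read by a probe of 60 bases that lies over chr11:98630526-98631028 on the minus strand of mm9, a stretch of 503 bases, so that the probe joins pieces of more than 1 exon and reads spliced RNA. Cry2 was read by a pair of probes, for transcript variant 1 (NM_009963, chr2:92243807-92243866) and transcript variant 2 (NM_001113333, chr2:92251417-92251476), both on the minus strand of mm9. The whole Nr1d1 probe and the first 30 bases of both Cry2 probes are given here because these are the spots on which the comparison turns.
Nr1d1 probe: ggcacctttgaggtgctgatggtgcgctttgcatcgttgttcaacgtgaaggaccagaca
Cry2 variant 1 probe: tctcccacagtttgtttgtgaatatttacc
Cry2 variant 2 probe: tcctcctgagtgctggaaattcagatacga
The Cry2 variants are read at separate places of the gene, and the coordinates are those of the array files. Variant 2 was not among the RefSeq transcripts used here, so its name rests on the array's own labels.

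The promoters of the 3 genes whose tested probes had the lowest log2 fold changes, Cry2, Nr1d1 and Per3, are shown with matches to known motifs of the loop. The choice rests on these values, and matches in the other genes, Cry1 included, are given below. The windows are the 250 bases before the RefSeq start site (build GRCm38.p6), all on the minus strand and written 5′ to 3′. Capitals mark the E′-box (CACGTT, which reads AACGTG on the other strand) in Nr1d1 and Cry2, and the D-box (TTATGTAA) in Per3.
Nr1d1, chr11:98775378-98775627: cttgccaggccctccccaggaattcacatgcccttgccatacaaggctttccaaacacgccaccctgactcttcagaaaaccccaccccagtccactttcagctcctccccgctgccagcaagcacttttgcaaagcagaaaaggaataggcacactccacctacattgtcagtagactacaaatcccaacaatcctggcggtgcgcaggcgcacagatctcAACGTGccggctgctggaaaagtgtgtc
Cry2, chr2:92434070-92434319: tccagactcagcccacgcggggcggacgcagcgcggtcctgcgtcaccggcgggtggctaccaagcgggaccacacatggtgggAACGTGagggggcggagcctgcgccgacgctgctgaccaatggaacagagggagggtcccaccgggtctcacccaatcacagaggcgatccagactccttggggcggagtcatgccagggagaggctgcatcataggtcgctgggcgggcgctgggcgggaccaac
Per3, chr4:151044666-151044915: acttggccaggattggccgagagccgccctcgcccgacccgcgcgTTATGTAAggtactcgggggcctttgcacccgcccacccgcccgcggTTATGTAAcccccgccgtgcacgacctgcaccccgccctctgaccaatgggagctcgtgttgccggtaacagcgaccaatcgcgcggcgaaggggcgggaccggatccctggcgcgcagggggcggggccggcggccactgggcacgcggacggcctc
The E′-box began 28 bases before the start site of Nr1d1 and 166 bases before that of Cry2, and the D-boxes of Per3 began 205 and 158 bases before its start.

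RefSeq windows were found for 9 of the 10 genes, 13 windows of 300 bases (250 before and 50 after the start), and none was found for Per2. On both strands, the E-box (CACGTG) was present for Per1 (166 bases before the start) and Cry1 (60 bases before), and in 7.15% of 32851 windows of the genome. The E′-box was found for Nr1d1, Cry2 and Cry1 (79 bases before the start) and in 4.685% of all windows. Per3 alone held a D-box, the binding sequence of DBP, TEF and HLF, which 0.9376% of windows carry. The core of the element bound by ROR and REV-ERB receptors (TAGGTCA or TGGGTCA) was found for Arntl, 31 bases after 1 of its start sites, and in 6.453% of windows. No clock window held the cAMP response element TGACGTCA, which 1.79% of windows hold. None of these motifs overlapped another in the clock windows, and a match is a description of the letters only.

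The activating arm held the smallest differences among the tested clock probes. Arntl, which encodes BMAL1, the obligatory partner of CLOCK, was read by a probe at chr7:120457261-120457320 (NM_007489). Its levels were 1.23, 1.45 and 1.46 in ND hearts 1 to 3 and 1.58, 1.27 and 1.25 in HFD hearts 1 to 3. The highest and the lowest HFD heart enclosed most of the ND range, and the groups overlapped. The means were 1.38 ± 0.13 and 1.37 ± 0.18 (SD, n = 3 per group), and the log2 fold change was −0.01 (SE 0.12, 95% interval −0.31 to 0.28, adjusted p = 0.980 by limma). Of all tested probes, 6.57% had a smaller absolute difference, and a slide row term gave −0.13 (unadjusted p = 0.491).

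Clock, which encodes the DNA-binding partner of BMAL1, was read at chr5:76641377-76641436 (NM_007715). ND hearts gave 1.04, 1.03 and 0.83, and HFD hearts gave 1.10, 1.08 and 1.02. ND 3 was the lowest, and HFD 3 lay just under the higher ND hearts. The log2 fold change was 0.10 (SE 0.083, 95% interval −0.10 to 0.30, adjusted p = 0.700 by limma). It was 0.031 without ND 3 and 0.050 with a slide row term. Npas2, the CLOCK paralog, gave a dim signal at chr1:39418941-39419000 (NM_008719) that was well above background in 2 of 3 ND and 1 of 3 HFD hearts. It was therefore not tested. Its intensities were 49.0, 6.54 and 34.9 in ND hearts and 16.9, 11.4 and 19.1 in HFD hearts, so that ND 2 was the dimmest and ND 1 the brightest of all 6.

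**Figure D1:**
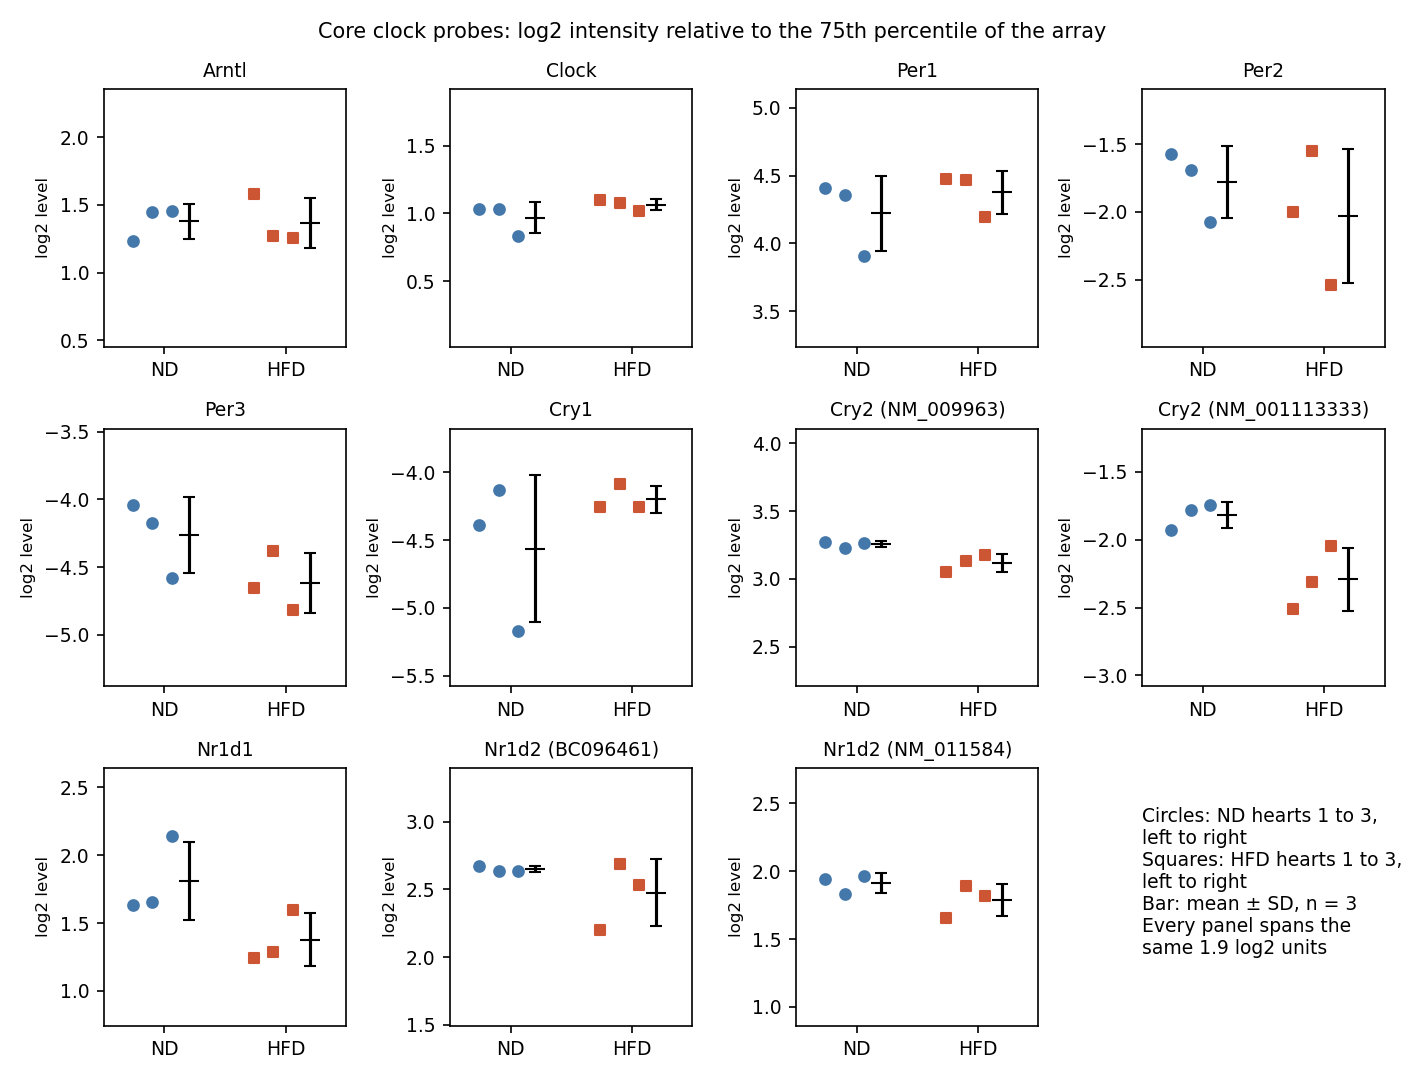
Levels of the 11 tested clock probes in each heart (log2 intensity relative to the 75th percentile of the array), ND hearts as circles and HFD hearts as squares in the order 1 to 3, with the mean ± SD of each group (n = 3). Every panel spans the same number of log2 units; the groups separate for both Cry2 probes and for Nr1d1 and overlap for the other 8 probes.

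The period genes encode the repressors that carry CRY proteins into the nucleus. Per1 gave 4.41, 4.36 and 3.90 in ND hearts and 4.47, 4.46 and 4.19 in HFD hearts at chr11:68923364-68923423 (NM_011065). HFD 1 and HFD 2 were just above the highest ND heart, and ND 3 stood below the other 5. The means of 4.22 ± 0.28 and 4.38 ± 0.16 (SD, n = 3 per group) differed by 0.15 (SE 0.16, 95% interval −0.24 to 0.55, adjusted p = 0.758 by limma). Without ND 3 the difference was −0.0055, so the higher HFD mean rested on that heart. A second Per1 probe, at chr11:68919895-68919954 and named for the cDNA AK081813, was not well above background in any heart.

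Per2, which also co-regulates nuclear receptors, had levels of −1.57, −1.69 and −2.08 in ND hearts and of −2.00, −1.55 and −2.54 in HFD hearts (chr1:93313046-93313105, NM_011066). HFD 2 was the highest and HFD 3 the lowest of all 6 hearts. The log2 fold change was −0.25 (SE 0.27, 95% interval −0.91 to 0.41, adjusted p = 0.766 by limma). It was 0.0045 without HFD 3, and −0.76 (unadjusted p = 0.0381, adjusted p = 0.616) when the slide row was a term of the limma model, which sets HFD 3 against the ND hearts. Per2 was the only clock probe below an unadjusted p of 0.05 in that model, in which 7.73% of all probes were. Its spread was wide, with a pooled SD larger than that of 89.8% of tested probes.

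Per3, the period gene that is dispensable for the core rhythm, gave −4.04, −4.18 and −4.58 in ND hearts and −4.65, −4.38 and −4.81 in HFD hearts (chr4:150379256-150379315, NM_011067). The probe was dim, with raw intensities of 29.7, 26.7 and 19.9 against 20.5, 21.8 and 19.3, and was well above background in 2 of 3 ND and 3 of 3 HFD hearts. ND 3 lay among the HFD hearts, and the other ND hearts lay above them. The log2 fold change was −0.35 (SE 0.18, 95% interval −0.78 to 0.086, unadjusted p = 0.0973, adjusted p = 0.508 by limma). It was negative under all 17 alternative settings that gave a value, from −0.55 to −0.17. The unadjusted p was below 0.05 in 5 of them. Among these were quantile normalization (0.0323 by limma) and the authors' log2 table (0.0304 by limma), whose values nearly coincide.

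The cryptochromes, which bind and silence CLOCK and BMAL1, had means on opposite sides. Cry1 was dim, well above background in 2 of 3 ND and 3 of 3 HFD hearts, at −4.39, −4.13 and −5.17 in ND hearts and −4.26, −4.08 and −4.26 in HFD hearts (chr10:84594731-84594790, NM_007771). The HFD hearts agreed closely, and ND 3 was far below the rest, at an intensity of 13.2 where the other 5 hearts had 23.3 to 28.4. The log2 fold change of 0.36 had an interval that ran from −0.29 to 1.01 (SE 0.27, adjusted p = 0.653 by limma), the only clock interval that reached beyond 2-fold. Without ND 3 it was 0.059.

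Cry2 variant 1 gave 3.27, 3.23 and 3.27 in ND hearts and 3.05, 3.13 and 3.18 in HFD hearts. Every HFD heart was below every ND heart, by a small amount, and 6.12% of tested probes had a smaller pooled SD. The means of 3.26 ± 0.02 and 3.12 ± 0.07 (SD, n = 3 per group) differed by −0.14 (SE 0.067, 95% interval −0.30 to 0.027, unadjusted p = 0.0875, adjusted p = 0.494 by limma), so that HFD hearts held 90.9% of the ND intensity. A slide row term gave −0.079 (unadjusted p = 0.454). The unadjusted p was 0.0264 in the methods' t-test run on all probes and 0.0464 in limma with trend and robust variances.

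Cry2 variant 2 gave −1.93, −1.78 and −1.75 in ND hearts and −2.51, −2.31 and −2.05 in HFD hearts. Here too the groups did not overlap, and HFD 3 was the HFD heart nearest to the ND hearts. The means were −1.82 ± 0.10 and −2.29 ± 0.23 (SD, n = 3 per group), and the log2 fold change was −0.47 (SE 0.13, 95% interval −0.80 to −0.15, unadjusted p = 0.0117, adjusted p = 0.286 by limma). HFD hearts thus held 72.0% of the ND intensity, and 93.3% of tested probes had a smaller absolute difference. The unadjusted p stayed below 0.05 with each of the 6 hearts left out in turn, but the difference was −0.23 in the model with a slide row term (unadjusted p = 0.153). The average of both Cry2 probes gave −0.31 on the log2 scale (SE 0.093, unadjusted p = 0.0166, adjusted p = 0.303 by limma). Whether the variants differ in their response was not tested.

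The REV-ERB receptors gave lower means on the HFD with all 3 of their probes. Nr1d1, the stronger known repressor of Arntl, gave 1.63, 1.66 and 2.14 in ND hearts and 1.24, 1.29 and 1.60 in HFD hearts. Every HFD heart was below every ND heart, HFD 3 only just, and ND 3 was the highest of the 6. The means were 1.81 ± 0.29 and 1.38 ± 0.19 (SD, n = 3 per group), and the log2 fold change was −0.43 (SE 0.17, 95% interval −0.86 to −0.0090, unadjusted p = 0.0466, adjusted p = 0.413 by limma), or 74.0% of the ND intensity. It was −0.27 without ND 3 (unadjusted p = 0.100), and the p was 0.130 without HFD 1 and 0.119 without HFD 2. The difference was −0.21 with the slide row as a term (unadjusted p = 0.401). The p was below 0.05 in 8 of 18 alternative settings, and the difference was negative in all 18.

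Nr1d2, the paralog with an overlapping role, was read by a probe for BC096461 at chr14:19036568-19036627 and one for NM_011584 at chr14:19037253-19037312. The first gave 2.68, 2.64 and 2.64 in ND hearts and 2.20, 2.69 and 2.53 in HFD hearts. HFD 1 was well below the other 5 hearts, HFD 2 was the highest of all, and the log2 fold change was −0.18 (SE 0.13, adjusted p = 0.656 by limma). The second gave 1.94, 1.83 and 1.97 against 1.66, 1.89 and 1.82, and the difference was −0.13 (SE 0.089, adjusted p = 0.641 by limma). HFD 1 was again the lowest heart, and both probes overlapped between the diets. Without HFD 1 the differences were −0.041 for the first probe and −0.059 for the second. Without HFD 2 the first probe gave −0.28 and the second −0.18, and a slide row term gave −0.12 and −0.098.

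**Figure D2:**
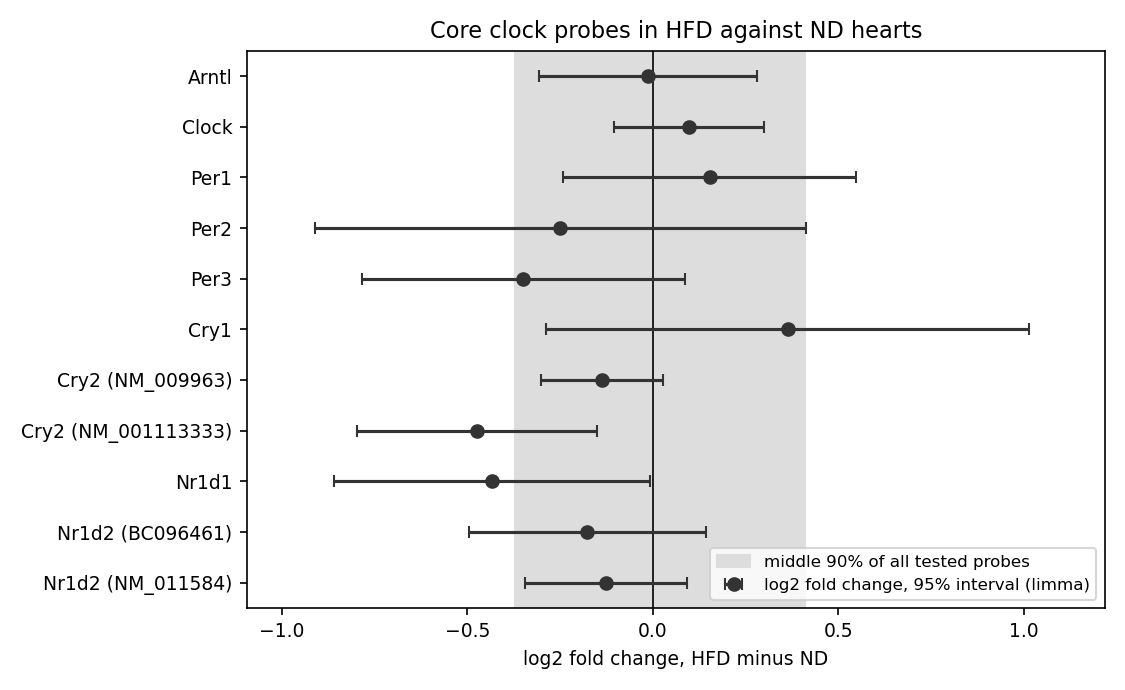
Log2 fold change (HFD minus ND) of each tested clock probe with its 95% interval from limma, beside the grey band that holds the middle 90% of all tested probes (−0.37 to 0.41). Only Cry2 variant 2 (NM_001113333) and Nr1d1 have an interval that leaves out 0, and their points lie just outside the band.

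Compared with the array as a whole, most clock probes varied more between hearts of 1 diet than the median probe did. For 8 of the 11 the pooled SD was above that of the median tested probe, the dim probes of Cry1 and Per3 among them. The interval of 10 of the 11 excluded a 2-fold difference in intensity. The share of all tested probes with such an interval was not computed. For the dim Per3 probe, close to background, the interval need not bound the difference in RNA. The middle 90% of all tested probes had log2 fold changes between −0.37 and 0.41, and only Cry2 variant 2 and Nr1d1 lay outside that range.

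Single hearts stood apart within a diet for several of the genes. ND 3 had the lowest ND level of Clock, Per1, Per2, Per3 and Cry1 and the highest ND level of Nr1d1. HFD 3 had the lowest HFD level of Arntl, Clock and the 3 period genes and the highest HFD level of Nr1d1 and Cry2. HFD 1 had the lowest HFD level of Cry2, Nr1d1 and Nr1d2 and the highest of Arntl.

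**Figure D3:**
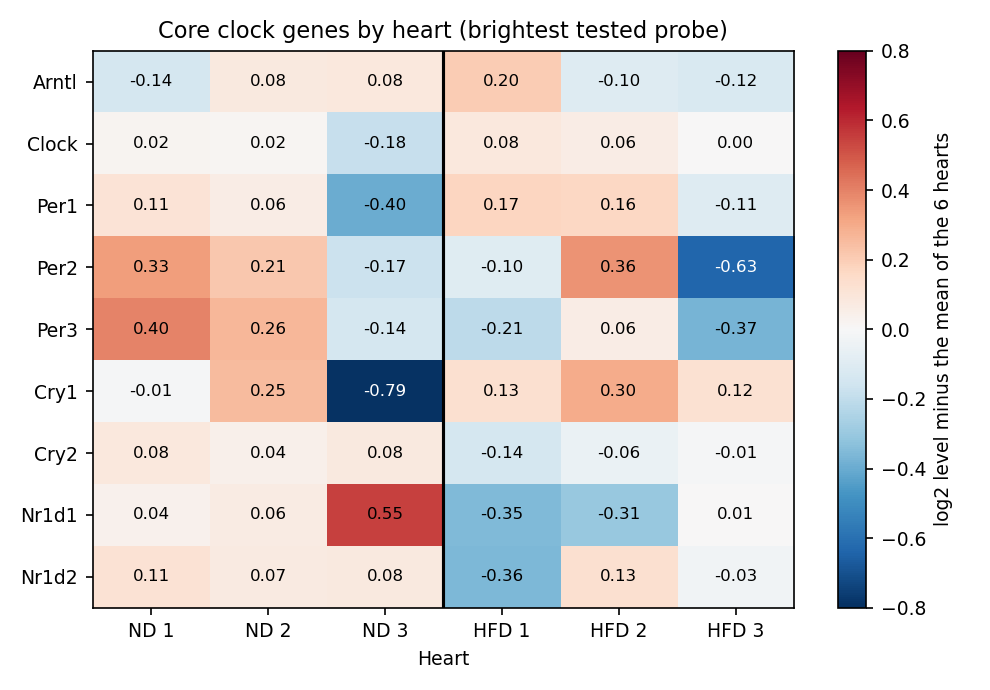
Level of each tested clock gene in each heart, by its brightest tested probe, as log2 units above (red) or below (blue) the mean of that gene over the 6 hearts, which is printed in each cell. The most extreme cells are Cry1 in ND 3, Per2 in HFD 3 and Nr1d1 in ND 3, and the line separates the diets.

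Averaged by arm, each gene first centred on its mean over the 6 hearts, the activators Arntl and Clock stood at −0.06, 0.05 and −0.05 in ND hearts and 0.14, −0.02 and −0.06 in HFD hearts, a difference of 0.04. The 5 repressors of the Per and Nr1d families stood at 0.20, 0.13 and −0.02 in ND hearts and −0.17, 0.08 and −0.23 in HFD hearts, a difference of −0.21, with HFD 2 among the ND hearts. The cryptochromes stood at 0.04, 0.15 and −0.35 in ND hearts and −0.01, 0.12 and 0.06 in HFD hearts, a difference of 0.11, with ND 3 far below the other hearts. That average joins opposite directions, Cry1 at 0.36 and Cry2 variant 1 at −0.14, and leaves out Cry2 variant 2 at −0.47. The Cry1 probe was dim and was tested only through the HFD hearts, where its mean was higher. The positive value is therefore not a reading of both genes. These averages are a description, and no test was made of them.

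Among 19510 genes well above background in all 6 hearts, those whose levels followed the average of the activators most closely were the transcript CJ236604 (Pearson's r = 0.981), an intergenic transcript of chromosome 8 without a gene name (r = 0.970) and Pnma3 (r = 0.967). The average of the Per and Nr1d repressors was followed most closely by Mrps21, a protein of the mitochondrial ribosome (r = 0.998), Rer1, a protein of the Golgi (r = 0.996), and Fis1, a factor of mitochondrial fission (r = 0.995). With 6 hearts and so many genes, values of this size are a ranking only, and the genes share their arrays.

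The wider clock was described with 24 further genes, of which 23 were tested and Fbxl21, a ligase subunit that acts on CRY proteins, was not well above background in any heart. Of these, 12 had a higher and 11 a lower mean on the HFD, and the median of their log2 fold changes was 0.0041. At an unadjusted limma p below 0.05, 2 were higher and 4 lower, where 5.24% and 6.64% of all tested probes were, and 0 passed the adjustment in limma (0.0145% of all probes). The lower genes were Hlf, Tef and Dbp, the PAR bZIP factors that bind D-boxes as direct output of the loop, and Usp2, a deubiquitinase of clock proteins. The higher genes were Bhlhe40 and Bhlhe41 (DEC1 and DEC2), E-box binding repressors.

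Hlf was at 1.41, 1.40 and 1.43 in ND hearts and at 1.09, 0.94 and 1.04 in HFD hearts, which did not overlap. Its log2 fold change was −0.39 (SE 0.070, unadjusted p = 0.00134, adjusted p = 0.158 by limma), and it was −0.37 (unadjusted p = 0.0176) with the slide row as a term. Tef, at 5.69, 5.45 and 5.48 in ND hearts and 5.10, 5.21 and 5.16 in HFD hearts, differed by −0.38 (SE 0.089, unadjusted p = 0.00515, adjusted p = 0.248). For Hlf and Tef the unadjusted p stayed below 0.05 without each heart in turn and with the slide row.

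Dbp was at 5.13, 4.81 and 5.27 in ND hearts and 4.69, 4.68 and 4.82 in HFD hearts, which overlapped at ND 2 and HFD 3, and differed by −0.34 (SE 0.13, unadjusted p = 0.0410, adjusted p = 0.404). A second Dbp probe gave −0.31 (unadjusted p = 0.0932 by limma). Usp2 was at 4.06, 4.17 and 4.01 in ND hearts and 3.68, 3.67 and 3.93 in HFD hearts, without overlap, a difference of −0.32 (SE 0.099, unadjusted p = 0.0184, adjusted p = 0.323). A slide row term brought the differences to −0.25 for Dbp (unadjusted p = 0.258) and −0.15 for Usp2 (unadjusted p = 0.236). With each heart left out in turn, the p was below 0.05 in 1 of 6 fits for Dbp and in 3 of 6 for Usp2.

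Bhlhe41 was at −2.89, −3.17 and −2.80 in ND hearts and −2.61, −2.30 and −2.61 in HFD hearts, without overlap, a difference of 0.45 (SE 0.14, unadjusted p = 0.0170, adjusted p = 0.319). A second Bhlhe41 probe gave 0.15 (unadjusted p = 0.219). Bhlhe40 was at 0.93, 1.23 and 1.21 in ND hearts and 1.87, 1.93 and 1.19 in HFD hearts. Its difference of 0.54 (SE 0.22, unadjusted p = 0.0478, adjusted p = 0.416) came from HFD 1 and HFD 2, the arrays of the first slide row, and was 0.07 with that row as a term. Bhlhe41 gave 0.34 with that term (unadjusted p = 0.151) and 0.20 to 0.52 over all 18 alternative settings, and its p was below 0.05 in 14 of them, among these all 6 fits that left out a heart. For Bhlhe40 the p was below 0.05 in 1 of those 6 fits. Gm129 (Ciart), a repressor of CLOCK and BMAL1, had the lowest value of the list, −0.73 (SE 0.32, unadjusted p = 0.0606), and is named after its value was seen. Over 18 alternative settings it ranged from −1.22, with the slide row term (unadjusted p = 0.0262), to −0.41, and its p was below 0.05 in 5 of them.

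**Figure D4:**
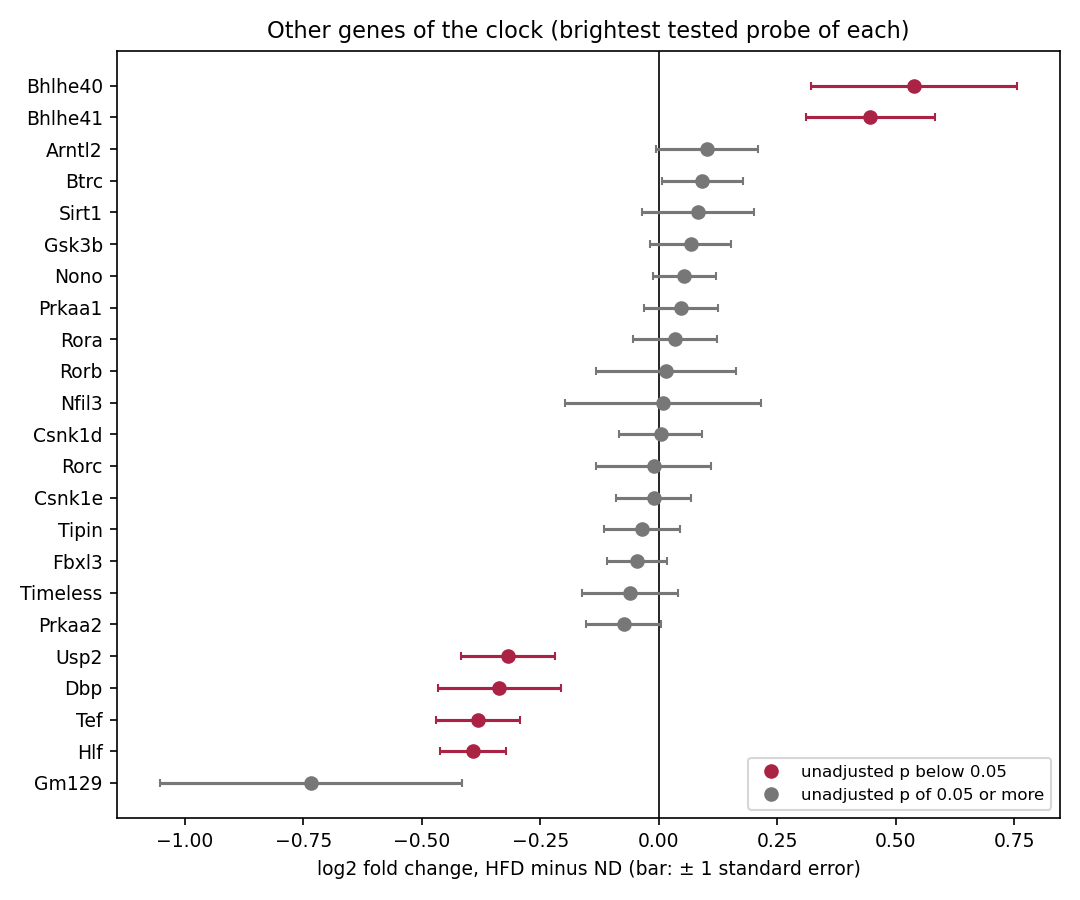
Log2 fold change (HFD minus ND, ± 1 standard error from limma) of 23 further clock genes by their brightest tested probe, with the 6 genes at an unadjusted p below 0.05 in red. Hlf, Tef, Dbp and Usp2 lie between −0.39 and −0.32, Gm129 is lowest at −0.73, and Nfil3 lies at 0.0089. Bhlhe40 and Bhlhe41 lie at 0.54 and 0.45.

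Per1 and Per2 are also known as immediate early genes, which respond quickly to stimuli, so that a list of 19 such genes was set beside them. Of the 17 tested, 17 had a higher mean on the HFD and 12 had an unadjusted limma p below 0.05, where 5.24% of all probes were higher at that limit, and 0 passed the adjustment in limma. The median log2 fold change was 0.89, and the largest among those 12 were Nr4a1, Fos and Egr1, at 2.17, 2.09 and 2.02. Egr2, named after its value was seen, had a larger difference of 2.38, with overlapping diets (SE 1.10, unadjusted p = 0.0747 by limma). For 11 of the 17 the diets did not overlap, against 7.91% of all tested probes that separated with higher HFD hearts. HFD 3, which shared the slide row of the ND hearts, had the lowest HFD level of most of the 17. How a slide row term or a left-out heart changes these differences was not examined. Per1 stood at 0.15 and Per2 at −0.25 in the same hearts. Within the ND, ND 3 had the lowest level of each of the 17 genes, and also of Per1 and Per2. Within the HFD, HFD 3 had the lowest level of Per1 and Per2, as of most of the 17. The differences of means do not show this shared order of hearts. Whether Per1 and Per2 followed the early genes from heart to heart was not tested.

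Markers of other cells were read as summed levels, on a linear scale where 1 is the 75th percentile of the array. The red cell list, of which 5 of 6 genes were tested, summed to 621 to 797 in ND hearts and 399 to 554 in HFD hearts, lower in every HFD heart as were Cry2 and Nr1d1. The part of red cell RNA in the clock values was not tested. Cidea, which with Ucp1 and Elovl3 formed the brown fat list, was the only tested gene of the 3, and that list summed to 42.6 to 46.6 in ND hearts and 51.7 to 61.3 in HFD hearts, with Elovl3 not well above background in any heart. The atrial list (4 of 4 tested) summed to 198 to 981 and 56.2 to 1149, the white fat list to 2.80 to 6.27 and 0.314 to 6.28 with Lep not well above background in any heart. Skeletal muscle summed to 0.574 to 1.14 and 0.522 to 0.795, and nerve and glia to 1.22 to 1.70 and 1.18 to 1.93, with Mylpf and Gfap not well above background in any heart. These last 4 ranges overlapped between the diets, and so did the working heart muscle list, at 3544 to 3614 in ND hearts and 3160 to 3807 in HFD hearts. HFD 2 had the lowest level of every atrial gene and of every tested white fat gene. On the log2 scale its Sln was −2.14, where the other hearts had 3.43 to 7.45. Whether this difference in the tissue pieces bears on the clock values of HFD 2 was not tested.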

How the data were processed

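Total RNA from 3 ND and 3 HFD hearts was measured on 6 Agilent mouse arrays, 1 array per heart and 1 colour. The authors' deposited spot values are intensities on a linear scale, from which Agilent Feature Extraction (version 10.7 per the labels) had subtracted the background within each array, without scaling the arrays to each other. The spot and local background intensity, also deposited, served only the normexp alternative. A log2 table deposited by the authors was set against these values. Each of its columns followed its own array (Spearman's rho 1.00, and no more than 0.954 with any other array) and lay within a median of 0.00430 of quantile-normalized log2 intensities, at a median of 4.55 in every column. These log2 values entered as an alternative. The array files place probes on mm9 and give the gene names. The methods name the labelling, scanner and extraction software, and do not say how the values were normalized.

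Control spots were left out, as were the 127 to 190 spots of an array that the software marked as outliers, spots of 1 probe were averaged, and the 75th percentile of each array was subtracted from log2 intensity. The test took probes that exceeded background well in all hearts of 1 diet or both and were read on 2 or more arrays of each diet. HFD was compared with ND over 27582 probes with limma 3.58.1 (lmFit and eBayes, two-sided, Benjamini-Hochberg adjustment) in R 4.3.3, with data.table (version 1.17.8), jsonlite 2.0.0 and statmod 1.5.0. The code was tested on simulated data. Figures and sequences were made in Python 3.11.15 with pandas 2.3.3, numpy 2.4.6 and matplotlib 3.10.9. Every probe of a clock gene is named. Where several probes of a gene were tested, the brightest stands for it in averages and figures. Of the further clock genes, those at an unadjusted p below 0.05 are named, besides Fbxl21, Gm129 and Nfil3. Of the early genes at most 3 are named besides Egr2, and for each arm of the clock the 3 genes with the highest r. The clock genes and all lists were chosen with earlier results of these data known. The arrays all held different values (Pearson's r between pairs 0.983 to 0.989), and each heart counts as 1 replicate. The methods do not say whether mice shared a cage, and with 3 arrays a diet the precision is limited by their number.

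The alternatives were quantile normalization, normexp (offset 50), dim probes kept, a filter for probes bright on all 6 arrays, the deposited log2 values, the methods' t-test, limma with trend and robust variances, array weights, the replicate block, a slide row term, the second slide row alone, outlier spots kept, each heart left out, and averaged probes of a gene.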

Additional observations from a re-analysis of the deposited data

How the results depend on the processing

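Over the 11 tested clock probes, 198 values were computed under alternatives. Of these, 190 kept the direction of the main value, 8 turned it and 0 crossed an adjusted p of 0.05. The settings share their arrays, so counts over settings are not counts of independent results. The 8 belong to Arntl (0.022 without ND 2, 0.027 without ND 3, 0.035 without HFD 2 and 0.045 without HFD 3), Per1 (−0.029 with the slide row as a term and with the second row alone, −0.0055 without ND 3) and Per2 (0.0045 without HFD 3), all of which had intervals that held 0. Leaving out hearts gave ranges of −0.12 to 0.045 for Arntl, −0.0055 to 0.25 for Per1 and −0.49 to 0.0045 for Per2. The number of clock probes at an unadjusted p below 0.05 was 2 by the main settings and 1 with no filter on dim probes, with the slide row as a term and with the second row alone. It was 3 with the intensity trend and robust variances, where Cry2 variant 1 had a p of 0.0464, and 2 with the methods' t-test, both of them for Cry2. It was also 2 with quantile normalization, the authors' log2 table and array weights, where Per3 was below 0.05 and Nr1d1 was not. It was 1 to 2 over the 6 fits that left out a heart, with 1 without HFD 1 and without HFD 2. The cause was not tested.

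Over all probes, the number past the adjusted p was 4 by the main settings, 2 with quantile normalization and with the authors' log2 table, 40 with normexp, 8 with the methods' t-test after adjustment, 81 with the intensity trend and robust variances, 7 with array weights, and 0 with no filter, the slide row as a term and the second row alone. It was 0 to 2 with a heart left out, 2 without ND 1 or HFD 1 and 0 without ND 2, ND 3, HFD 2 or HFD 3. The number at an unadjusted p below 0.05 was 3275 by the main settings, 2133 with the slide row as a term and 2155 (without ND 1) to 3491 with a heart left out.

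The labels number the hearts within each diet and name no pairs. Over all tested probes, deviations of same-numbered hearts correlated at −0.154, 0.147 and 0.191, and those of other pairs at −0.302 to 0.190. With 3 hearts a diet, these values cannot tell whether the numbers pair the hearts. With the replicate block, 3 clock probes had an unadjusted p below 0.05 (Cry2 variant 2, Nr1d1 and Per3), 0 passed the adjustment, and 0 of all probes did. The block lowered the SE of Nr1d1 from 0.17 to 0.084, of Per1 from 0.16 to 0.089 and of Per2 from 0.27 to 0.15. It also lowered the SE of Cry1 from 0.27 to 0.20, of Cry2 variant 2 from 0.13 to 0.096 and of Per3 from 0.18 to 0.12. The SE of Clock (0.083 to 0.081) and of the first Nr1d2 probe (0.13 in both fits) hardly moved. It was raised only for Arntl, from 0.12 to 0.14, for Cry2 variant 1, from 0.067 to 0.080, and for the second Nr1d2 probe, from 0.089 to 0.10.

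Normexp compresses dim signals by its offset, and under it the log2 fold change of Cry1 was 0.02 and that of Per3 −0.17. Npas2 and the second Per1 probe, fitted with no filter, gave −0.59 (SE 0.78) and −0.56 (SE 0.39), at levels that background limits. The time of day of each heart is not known from the sources used here. With 3 hearts per diet no clock probe passed the adjustment. The differences seen for Cry2, Nr1d1, Per2, Per3 and Cry1 thus remain unresolved.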
